A study of Mus musculus with 12 samples.

Results

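The genes described here encode respiratory complex I and the proteins that build it. They were taken as every probe set with a single gene symbol starting with Nduf in the platform annotation, with the probe set of the highest mean standing for a gene that had more than 1. This gave 43 of the 19937 genes measured. Of these, 34 encode subunits, 7 encode assembly factors and 2 carry the name without belonging to the finished complex in its current description (Ndufa4 and its paralog Ndufa4l2). The RNA came from mouse hearts on 12 arrays, 4 from control mice, 4 from mice with mutant IDH2 R140Q and 4 from mice with mutant IDH2 R172K, with C57BL/6, Balb/c and 129/sv all contributing to their mixed background. IDH2 is the mitochondrial isocitrate dehydrogenase, and both mutant enzymes are known to make D-2-hydroxyglutarate. Mutant mice, aged 5 weeks, received 2 mg of 4-hydroxytamoxifen over 3 days. That drug treatment is labelled for mutant mice only, so its effect and that of the mutation cannot be told apart in any comparison with control. The sources used here do not give how the mutation was switched on, the sex or the time to dissection. For controls they give neither the age nor the treatment.

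Complex I takes electrons from NADH, passes them along iron-sulfur clusters to ubiquinone and pumps protons across the inner mitochondrial membrane. Its peripheral arm reaches into the matrix and carries the NADH site and the clusters, while its membrane arm holds the proton channels. Core subunits do the catalysis, supernumerary subunits stabilise the arms, and assembly factors leave once the complex is complete. Heart muscle is packed with mitochondria and depends on this enzyme for most of its ATP. The core subunits of the membrane arm are encoded in mitochondrial DNA. Of those, the array's gene list used here held ND3, whose log2 intensity lay between 13.68 and 13.78 on all 12 arrays. Its mean of 13.72 is far above the median of 6.69 over all genes. Whether so bright a probe set could show a change was not tested.

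The values are log2 of a normalised array intensity, and an intensity of one probe set says nothing about its level against another gene. Idh2 itself read 12.83, 12.85, 12.67 and 12.62 on the control arrays (mean 12.74 ± 0.11, SD, n = 4). The R140Q arrays read 12.41, 12.57, 12.27 and 12.53 and the R172K arrays 12.52, 12.55, 12.57 and 11.88. Every mutant array thus lay below every control array. The differences from control were -0.30 ± 0.14 (SE) in R140Q and -0.36 ± 0.14 in R172K hearts. Neither passed the limma test (adjusted p = 0.301 and 0.109). A gene is said to have risen or fallen where the limma fit to all 12 arrays gave a Benjamini-Hochberg adjusted p under 0.05 over the 19937 genes. The labels number the replicates but do not tie each to a separate animal, and the p-values then reflect only how these arrays vary, which may be technical. The cardiomyocyte markers Myh6, Actc1, Tnnt2, Tnni3, Myl2 and Ryr2 were bright in every heart. The skeletal muscle markers summed to between 147 and 174 intensity units. The lung epithelium markers reached 4810 on the array R140Q 4 against at most 244 elsewhere. Along the first principal component the array R172K 4 stood at 40.75, against at most 23.94 on any other array. R172K 3 lay apart from its group on the other side (-6.19, against 17.87 and 23.94 on R172K 2 and R172K 1). In limma both had low array weights (0.366 and 0.365, against at least 0.901 elsewhere). The R172K medians of subunits and of assembly factors and the count of Nduf genes are given without R172K 4 as well. So are the R172K differences of single Nduf genes that R172K 4 moved by over 1.5 times.

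In R172K hearts complex I genes were lower than in control. Of the 43 genes, 12 fell, none rose and 31 did not pass, where 13% of all genes passed in either direction with 6.23% higher and 6.78% lower. The genes that fell were 11 of the 34 subunits and 1 of the 7 assembly factors. The median log2 difference was -0.25 over the 34 subunits and 0 over all genes tested, and 30 of the 34 subunits had a difference below 0, against 50.9% of all genes. An unadjusted p under 0.05 was reached by 21 of the 34, against 26.6% of all genes. In R172K hearts 18 of the 43 genes lay on all 4 arrays below every control array and 2 above, against 8.72% and 7.47% of all genes. In R140Q hearts the same subunits had a median difference of -0.08 and none of the 34 passed. The 2 comparisons share the 4 control arrays.

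**Figure D1:**
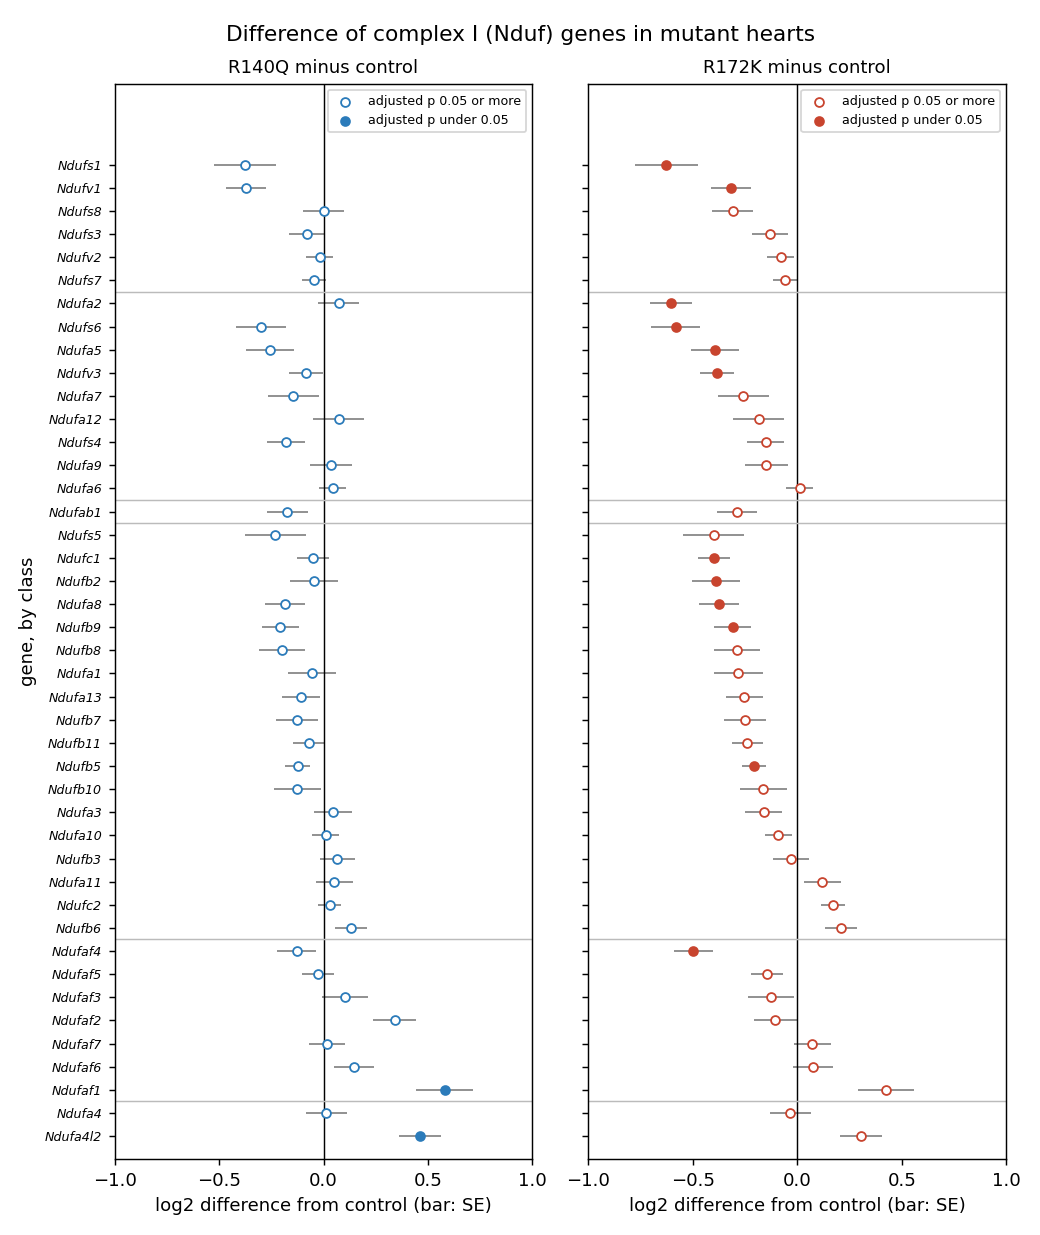
Log2 difference from control (horizontal axis, limma estimate with its SE as bar) of the 43 Nduf genes in R140Q hearts (left) and R172K hearts (right), 4 arrays a group. Genes are ordered within each class, from the top core, peripheral arm, acyl carrier, membrane arm, assembly factors, and Ndufa4 with Ndufa4l2. Filled points passed at an adjusted p under 0.05. They are 12 lower genes in R172K hearts and 2 higher genes, Ndufaf1 and Ndufa4l2, in R140Q hearts.

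Among the core subunits, Ndufs1 and Ndufv1 fell in R172K hearts. Ndufs1, the largest subunit, carries several of the clusters of the electron path. Its control arrays read 11.66, 11.68, 11.64 and 11.61, its R140Q arrays 11.22, 11.60, 11.00 and 11.28, and its R172K arrays 10.90, 10.98, 11.48 and 10.72. Every mutant array lay below every control array, and the mutant arrays were spread far more widely than the tightly grouped controls. The difference was -0.63 ± 0.15 (SE) in R172K hearts (adjusted p = 0.0168) and -0.38 ± 0.15 in R140Q hearts, which did not pass (adjusted p = 0.213).

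Ndufv1 binds the flavin that takes the electrons from NADH. It read 11.91, 12.08, 11.98 and 11.98 in control, 11.58, 11.80, 11.48 and 11.62 in R140Q, and 11.68, 11.82, 11.78 and 11.40 in R172K hearts. Again no mutant array reached the control range. Ndufv1 fell by 0.32 ± 0.10 in R172K hearts (adjusted p = 0.0474), while its R140Q difference of -0.37 ± 0.10 missed the threshold (adjusted p = 0.0664). The difference between the mutants was 0.05 ± 0.10 (adjusted p = 0.866), so the pass in R172K alone does not set them apart.

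The other 4 core subunits on the array did not pass in any comparison. Ndufs8, which carries clusters near the junction of the arms, came closest. It read between 12.03 and 12.08 on the control arrays and between 11.94 and 12.11 on the R140Q arrays, then 11.69, 11.77, 12.04 and 11.47 on the R172K arrays. The array R172K 3 thus lay within the control range and the other 3 R172K arrays below it (-0.31 ± 0.10, adjusted p = 0.0563). Of the 12 fits that each left out 1 array, only that without R172K 3 gave a call (adjusted p = 0.00318), and without R172K 4 the difference was -0.22 (adjusted p = 0.122). Ndufs7 holds the cluster next to ubiquinone and was nearly constant, with 13.13, 13.13, 13.05 and 13.06 in control and 13.02, 13.06, 13.09 and 12.96 in R172K hearts. In R140Q hearts it read 13.02, 13.12, 13.00 and 13.04. Ndufv2, a cluster protein beside Ndufv1, read 12.60, 12.63, 12.59 and 12.62 in control, 12.60, 12.63, 12.61 and 12.53 in R140Q, and 12.60, 12.60, 12.57 and 12.35 in R172K hearts. Ndufs3, a matrix-facing subunit of the ubiquinone module, read 11.69, 11.76, 11.69 and 11.79 in control, 11.63, 11.81, 11.51 and 11.65 in R140Q, and 11.66, 11.69, 11.70 and 11.36 in R172K hearts. For Ndufv2 and Ndufs3 the arrays R172K 1 to 3 lay within or just below the control range, and R172K 4 alone was low. The R172K differences without R172K 4 were -0.02 for Ndufv2 (-0.08 with it), -0.05 for Ndufs3 (-0.13) and -0.04 for Ndufs7 (-0.06).

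The peripheral arm held Ndufa2, the member with the smallest adjusted p. Of its 9 supernumerary subunits, 4 fell in R172K hearts. Ndufa2, a small thioredoxin-like subunit of the NADH-binding module, read 10.40, 10.49, 10.31 and 10.50 in control and 10.61, 10.46, 10.41 and 10.50 in R140Q hearts, but 9.73, 9.72, 10.15 and 9.68 in R172K hearts. The control and R140Q arrays overlapped in part, and all 4 R172K arrays lay below both. Ndufa2 fell by 0.60 ± 0.10 in R172K hearts (adjusted p = 0.00361), and its linear intensity decreased by 34.2%. In R140Q hearts its difference was 0.07 ± 0.10 (adjusted p = 0.798).

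Ndufs6 is a zinc-binding subunit needed to finish the NADH-binding module. It read 10.26, 10.49, 10.71 and 10.52 in control, 10.07, 10.30, 10.13 and 10.27 in R140Q, and 9.82, 9.95, 10.21 and 9.66 in R172K hearts. The R172K arrays all lay below the control arrays, and the R140Q arrays overlapped both groups. The fall in R172K hearts was -0.58 ± 0.12 (adjusted p = 0.0091), and the R140Q difference was -0.30 ± 0.12 (adjusted p = 0.214).

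Ndufv3, an accessory subunit beside the flavin site, read 8.98, 9.20, 9.11 and 9.13 in control, 9.13, 9.02, 9.05 and 8.87 in R140Q, and 8.71, 8.78, 8.85 and 8.55 in R172K hearts. It fell by 0.38 ± 0.08 in R172K hearts (adjusted p = 0.0107), with all R172K arrays below all others. Ndufa5, a subunit of the ubiquinone module, read 10.18, 10.10, 10.07 and 10.11 in control, 9.79, 10.06, 9.72 and 9.87 in R140Q, and 9.79, 9.79, 9.97 and 9.34 in R172K hearts. Every mutant array lay below the lowest control array, R140Q 2 by the least. Ndufa5 fell by 0.39 ± 0.12 in R172K hearts (adjusted p = 0.0434), and its R140Q difference of -0.26 ± 0.12 did not pass (adjusted p = 0.286).

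The other 5 peripheral subunits did not pass in any comparison. Their R172K differences were -0.26 for Ndufa7, -0.18 for Ndufa12, -0.15 for Ndufs4, -0.15 for Ndufa9, a subunit close to the ubiquinone site, and 0.01 for Ndufa6. Without R172K 4 these were -0.12, -0.04, -0.10, -0.03 and 0.03 in the same order. Ndufa6 binds the acyl carrier protein, and its 12 arrays lay between 10.52 and 10.78. The acyl carrier protein gene itself, Ndufab1, sits in both arms and also serves mitochondrial fatty acid synthesis. It read 11.12, 11.07, 11.03 and 11.03 in control, 10.86, 11.02, 10.77 and 10.89 in R140Q, and 10.77, 10.84, 11.01 and 10.48 in R172K hearts. Every mutant array was lower than every control array, but neither difference passed (R172K -0.29 ± 0.10, adjusted p = 0.0723, and -0.19 without R172K 4). A dimmer probe set of Ndufab1 had an R172K difference of -0.68 (adjusted p = 0.0124 over all probe sets), so the pair of probe sets disagreed in size and in the call. A pseudogene copy is listed for Ndufab1, as for Ndufa12 and Ndufs6, and which copy a probe set reads was not tested.

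**Figure D2:**
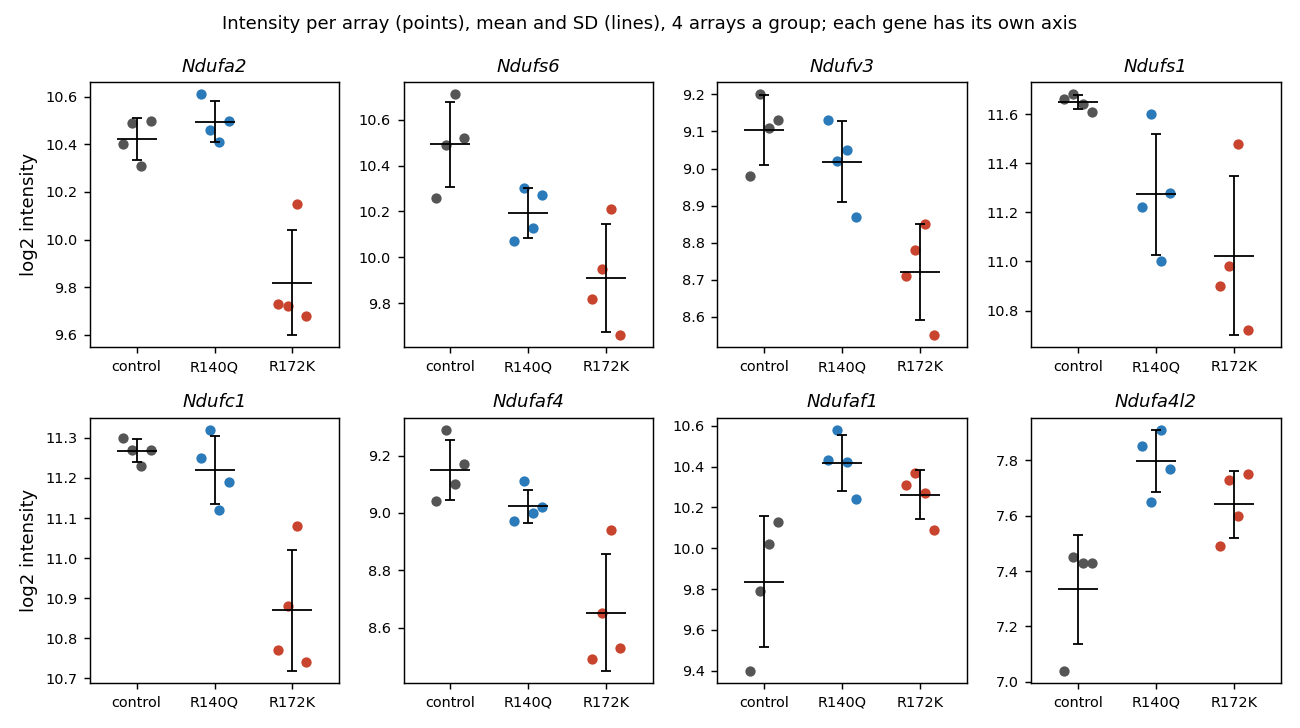
Log2 intensity (vertical axis, its own range for each gene) of 8 Nduf genes on each array of control, R140Q and R172K hearts, with mean and SD of 4 arrays. The first 6 genes fell in R172K hearts. For Ndufa2 the R140Q arrays (10.41 to 10.61) overlap the control arrays, while Ndufaf1 and Ndufa4l2 are higher in R140Q hearts.

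The membrane arm held 18 genes, of which 5 fell in R172K hearts, none rose and 13 did not pass. Their median difference was -0.24. Set against the control mean, the median was -0.21, -0.16 and -0.11 on R172K 1, 2 and 3 and -0.47 on R172K 4. Without R172K 4 the calls on Ndufb2, Ndufb5 and Ndufb9 ended. Ndufc1, a small subunit beside the proton channel ND2, had the smallest adjusted p of them. It read 11.30, 11.27, 11.23 and 11.27 in control, 11.25, 11.32, 11.12 and 11.19 in R140Q, and 10.77, 10.88, 11.08 and 10.74 in R172K hearts. All R172K arrays were below all control and R140Q arrays, and the fall was -0.40 ± 0.08 (adjusted p = 0.00688). A second probe set of Ndufc1 gave -0.37.

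Ndufa8, a subunit on the intermembrane-space side, read 11.67, 11.78, 11.54 and 11.69 in control, 11.50, 11.51, 11.47 and 11.46 in R140Q, and 11.25, 11.41, 11.51 and 11.00 in R172K hearts. It fell by 0.38 ± 0.10 (adjusted p = 0.0236). Ndufb9, which like Ndufa6 binds the acyl carrier, read 12.82, 12.72, 12.66 and 12.71 in control, 12.54, 12.59, 12.45 and 12.50 in R140Q, and 12.47, 12.56, 12.51 and 12.13 in R172K hearts. It fell by 0.31 ± 0.09 (adjusted p = 0.0375). For Ndufa8 and Ndufb9 the R140Q arrays, too, all lay below the controls, without passing the test (-0.18 and -0.21).

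Ndufb2 and Ndufb5 belong to the far part of the membrane arm. Ndufb2 read 9.53, 9.57, 9.36 and 9.55 in control, 9.45, 9.61, 9.38 and 9.39 in R140Q, and 9.17, 9.23, 9.33 and 8.72 in R172K hearts (-0.39 ± 0.12, adjusted p = 0.044, and -0.26 without R172K 4). Its R172K 3 array was only just below the lowest control array. Ndufb5 read 11.92, 12.01, 11.94 and 11.97 in control, 11.79, 11.91, 11.83 and 11.83 in R140Q, and 11.76, 11.82, 11.80 and 11.64 in R172K hearts (-0.21 ± 0.06, adjusted p = 0.0356). It had the smallest difference of the 12 genes that fell, with little spread within each group.

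Not every subunit gene of the membrane arm was lower. Ndufb6 read 11.93, 12.29, 12.18 and 12.24 in control and 12.39, 12.34, 12.39 and 12.35 in R172K hearts, all 4 of which were higher than any control array (0.21 ± 0.08, adjusted p = 0.0864). Ndufc2, the partner of Ndufc1 in the same part of the arm, had a difference of 0.17 ± 0.06 (adjusted p = 0.0678), and Ndufa11 one of 0.12 (adjusted p = 0.436), which was 0.19 without R172K 4. The remaining differences in R172K hearts were negative. They ran from -0.03 for Ndufb3 to -0.40 for Ndufs5, whose array R172K 4 read 8.76 against 9.41 to 9.48 on the other R172K arrays, and whose difference without R172K 4 was -0.23. Ndufa1, Ndufa13, Ndufb7 and Ndufb11 also had all 4 R172K arrays below all controls (-0.28, -0.25, -0.25 and -0.24) without passing. Ndufb8, Ndufb10, Ndufa3 and Ndufa10 had overlapping groups and differences of -0.29, -0.16, -0.16 and -0.09. Without R172K 4 the differences of Ndufb8, Ndufb10, Ndufa10 and Ndufb7 were -0.17, -0.07, -0.03 and -0.14.

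**Figure D3:**
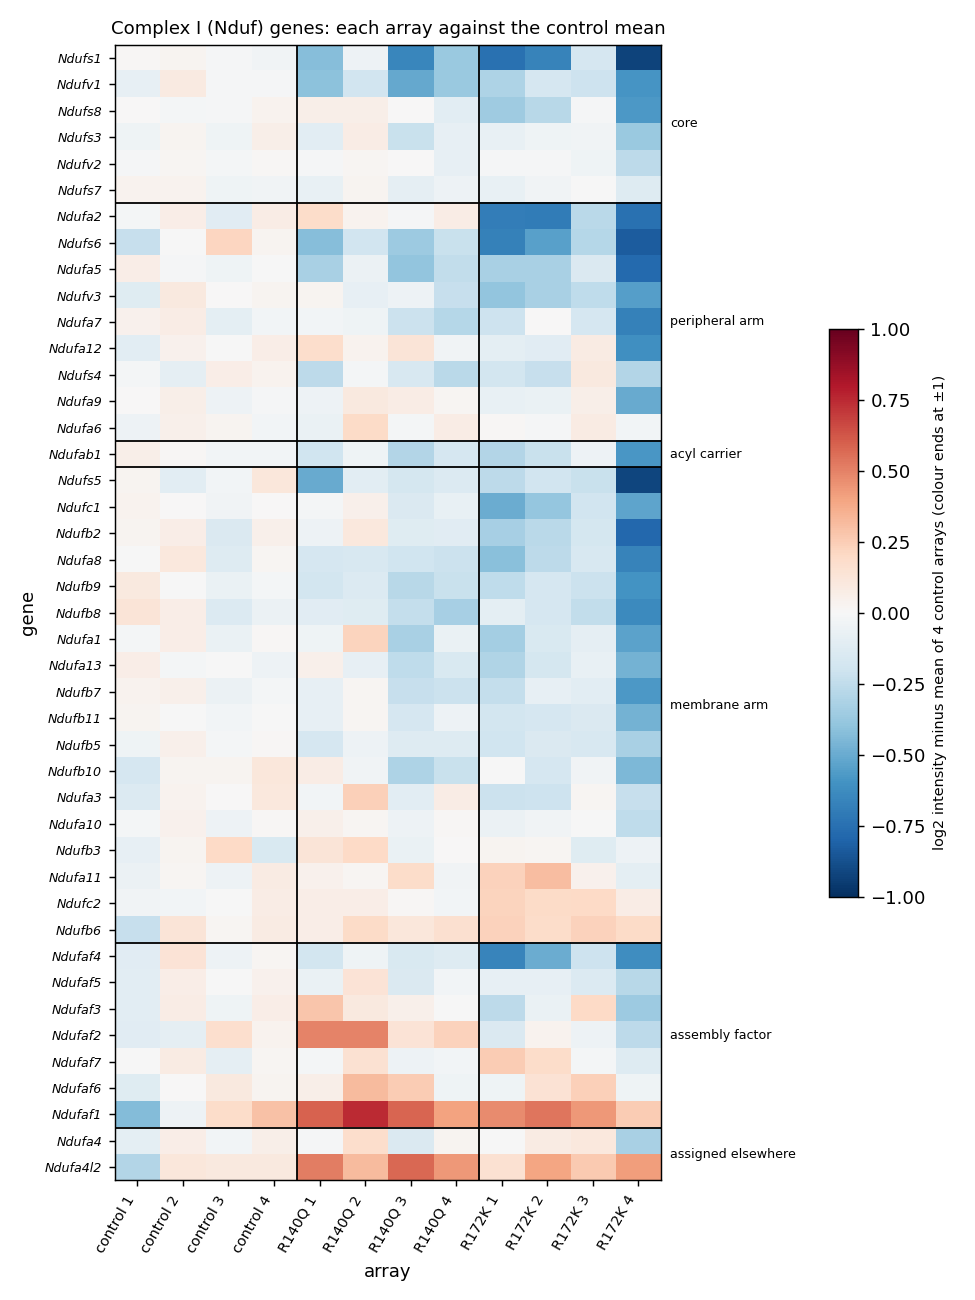
Log2 intensity of each of the 43 Nduf genes (rows, grouped by class) on each of the 12 arrays (columns), as the difference from the mean of the 4 control arrays (colour). The column R172K 4 is the bluest, and it was the lowest of the 12 arrays for 35 of the 43 genes. The bottom rows show the higher values of Ndufaf1 and Ndufa4l2 on the mutant arrays.

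The R172K arrays differed among themselves. R172K 4 was the lowest of all 12 arrays for 35 of the 43 genes, against 17.9% of all genes, and R172K 3 was the highest of the R172K arrays for 26 of them. The median over the 34 subunits, set against the control mean, was -0.21 on R172K 1, -0.16 on R172K 2, -0.09 on R172K 3 and -0.53 on R172K 4. On the R140Q arrays it was -0.05, 0.02, -0.16 and -0.11, so R140Q 2 matched control while R140Q 3 resembled R172K 2. On the control arrays it stayed between -0.03 and 0.03. The SD within the group was larger in R172K than in control hearts for 37 of the 43 genes (67.4% of all genes), with a median over the subunits of 0.195 against 0.06. Without R172K 4 the subunit median in R172K hearts was -0.17, and 30 of the 34 differences were below 0. Of the 43 genes 7 then fell, in place of 12, and Ndufc2 rose (0.21, adjusted p = 0.0406). Leaving out R172K 3 moved the count the other way, to 17. Ndufa13, Ndufab1, Ndufb11, Ndufs4 and Ndufs8 then fell besides the 12 (limma, adjusted p from 0.00318 to 0.043).

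Heart muscle markers moved with these values. The 6 cardiomyocyte markers summed to between 62800 and 66100 intensity units in control, between 57500 and 60500 in R140Q and between 48500 and 58200 in R172K hearts, with R172K 4 the lowest and R172K 3 the highest of its group. Of the 6 markers 3 fell in R172K hearts, Myl2, Ryr2 and Tnni3, and all 6 differences were below 0. The 5 fibroblast markers summed to 7750 to 10000 in control, 8370 to 13100 in R140Q and 9800 to 19500 in R172K hearts. In R172K hearts 4 of the 5 rose and all 5 differences were above 0. The sum on R172K 3 (9800) still lay within the control range. In R140Q hearts none of the 5 passed, with 3 differences above 0 and 2 below. In such bulk samples fewer heart muscle cells and less RNA per cell cannot be told apart, and the part of these marker lists in the fall of complex I genes was not tested. Of the 4 endothelial markers Cdh5 and Kdr rose in R140Q hearts (adjusted p = 0.0168 and 0.0208) and Kdr in R172K hearts (adjusted p = 0.00313), and their sum was 4090 to 4370 in control, 5300 to 5790 in R140Q and 4620 to 5550 in R172K hearts. The 4 macrophage markers, none of which passed, summed to 5010 on R172K 4 and to at most 3050 on any other array. Of the brown fat markers, Ucp1 and Elovl3 showed no difference that passed, and Cidea rose by 1.01 in R172K hearts (adjusted p = 0.0021) and by 0.62 in R140Q hearts (adjusted p = 0.049).

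**Figure D4:**
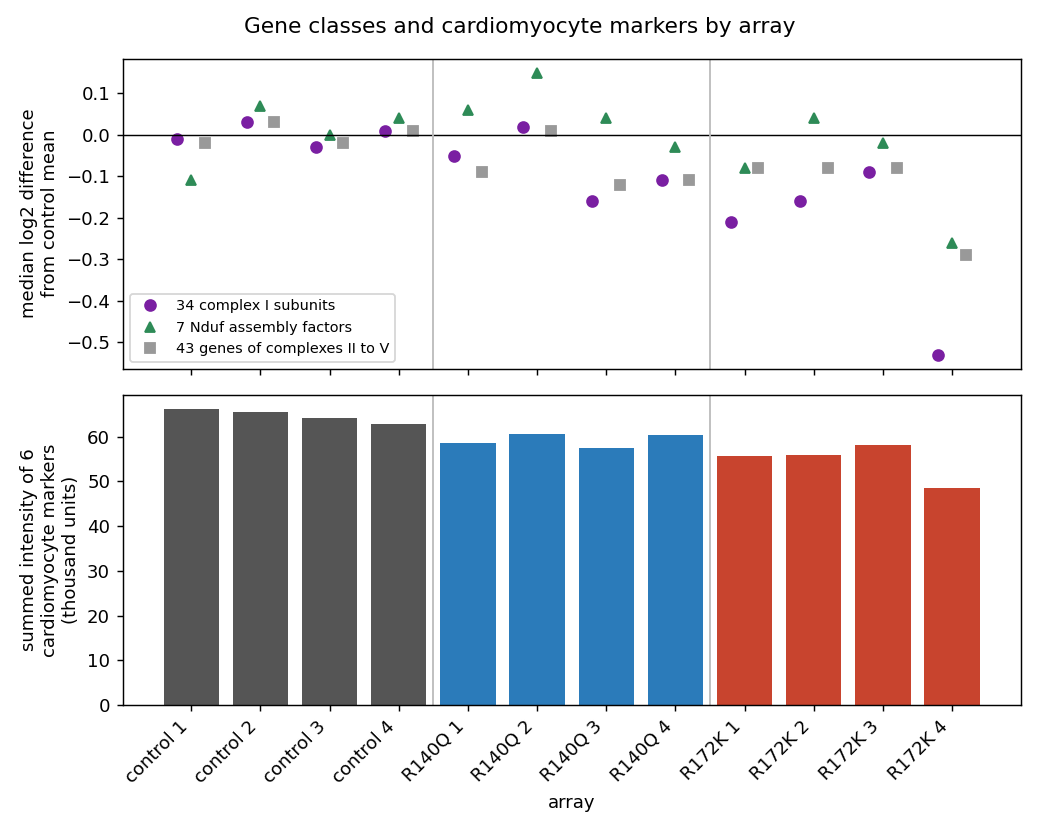
Top, median log2 difference from the control mean on each array for 34 complex I subunits, 7 Nduf assembly factors and 43 genes of complexes II to V (39 subunits and 4 complex II assembly factors). Bottom, summed intensity of 6 cardiomyocyte markers on each array, in units of 1000. R172K 4 is lowest in every series, with a subunit median of -0.53 and a marker sum of 48500 units.

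The calls in R172K hearts differed in how much they leaned on single arrays. Ndufa2, Ndufs6, Ndufv3, Ndufc1 and Ndufaf4 passed at 0.05 in all 21 alternative fits, which include each of the 12 arrays left out in turn. At an adjusted p under 0.01 in the fit to all arrays Ndufv3 did not pass and the other 4 did. Ndufs1 failed only without R172K 1 (adjusted p = 0.0565). Ndufa8 failed without control 1, 2 or 4 or R172K 1 (adjusted p from 0.0558 to 0.0736). Ndufv1, Ndufb5, Ndufb9, Ndufb2 and Ndufa5 failed without any of those 4 arrays and also without R140Q 4 or R172K 4, with adjusted p up to 0.127. Ndufv1, Ndufb5, Ndufb9 and Ndufa5 failed without control 3 as well. R140Q 1 was needed for Ndufv1, Ndufb9, Ndufb2 and Ndufa5, R140Q 3 for Ndufv1, Ndufb2 and Ndufa5, and R172K 2 for Ndufb2 and Ndufa5. The 12 lower genes became 6 without control 1, 2 or 4, 7 without R140Q 4 and 5 without R172K 1. Without control 4 Ndufaf1 also rose (0.52, adjusted p = 0.0337). Arrays centred on their medians gave 7, all lower.

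Of the 7 assembly factor genes, Ndufaf4 fell in R172K hearts, and the median difference of the class was -0.10 there and 0.10 in R140Q hearts. Without R172K 4 the R172K median was -0.04, and without R140Q 1 the R140Q median was 0.04. Ndufaf4 acts with Ndufaf3 in building the ubiquinone module. It read 9.04, 9.29, 9.10 and 9.17 in control, 8.97, 9.11, 9.00 and 9.02 in R140Q, and 8.49, 8.65, 8.94 and 8.53 in R172K hearts. The R172K arrays lay below all others, and Ndufaf4 fell by 0.50 ± 0.09 (adjusted p = 0.00641), and its linear intensity decreased by 29.2%. Its partner Ndufaf3 had overlapping groups (-0.13 ± 0.11 in R172K hearts, adjusted p = 0.532, and -0.04 without R172K 4).

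Ndufaf1 was higher in mutant hearts. It belongs to the assembly complex that builds the ND2 part of the membrane arm. Its control arrays read 9.40, 9.79, 10.02 and 10.13, its R140Q arrays 10.43, 10.58, 10.42 and 10.24, and its R172K arrays 10.31, 10.37, 10.27 and 10.09. The R140Q arrays lay above all controls, while R172K 4 fell within the control range, and control 1 was well below the other controls. Ndufaf1 rose by 0.58 ± 0.14 in R140Q hearts (adjusted p = 0.0481), and its R172K difference of 0.43 ± 0.14 missed the threshold (adjusted p = 0.0582). The R140Q call ended without control 1, 2 or 3, any 1 R140Q array, or R172K 1 or 2 (adjusted p from 0.0607 to 0.128). Without control 1 the R140Q difference was 0.44 (adjusted p = 0.095).

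Ndufaf2, a paralog of Ndufa12 that holds its place during assembly, read 6.90, 6.92, 7.18 and 7.05 in control, 7.51, 7.51, 7.15 and 7.24 in R140Q, and 6.87, 7.05, 6.96 and 6.75 in R172K hearts. Its R140Q and R172K arrays did not overlap, and the difference between the mutants was -0.44 ± 0.10 (adjusted p = 0.0515). Against control its R172K difference was -0.10, and -0.05 without R172K 4. Ndufaf5, which hydroxylates Ndufs7, Ndufaf6 and the methyltransferase Ndufaf7 had R172K differences of -0.14, 0.08 and 0.07 (-0.10, 0.11 and 0.14 without R172K 4), with overlapping groups in every comparison. Ndufaf5, the dimmest of the 43 probe sets, read 6.93, 7.10, 7.03 and 7.08 in control, 6.97, 7.17, 6.89 and 7.01 in R140Q, and 6.95, 6.95, 6.90 and 6.76 in R172K hearts.

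Assembly factors with other names, and a supercomplex factor, were listed beside these as context. Of 12 such genes measured, 1 fell in R172K hearts, Tmem186 (-0.35, adjusted p = 0.0318), and none rose. Of all genes 6.78% fell and 6.23% rose, so 1 of 12 is near that share. A difference below 0 was found for 11 of the 12, against 50.9% of all genes. In R140Q hearts none of the 12 passed in limma, where 2.2% of all genes did. None reached an unadjusted p under 0.05 either, against 17% of all genes. Their differences were above 0 for 8 and below 0 for 4, where 49.1% of all genes were below 0. Ecsit and Acad9, which work in 1 complex with Ndufaf1, had R140Q differences of -0.07 and 0.09 and R172K differences of -0.33 and -0.02. For both, R172K 4 was the lowest R172K array. Ecsit read 8.93, 9.39, 9.29 and 8.67 in R172K hearts, against 9.23 to 9.53 in control. Acad9 read 8.53, 8.68, 8.72 and 8.25 in R172K hearts, against 8.52 to 8.60 in control.

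In R140Q hearts 2 of the 43 genes rose and none fell, where 2.2% of all genes passed, 1.08% higher and 1.12% lower. Of the 34 subunits 23 had a difference below 0, against 49.1% of all genes. No subunit passed in the main limma fit, and 5 of the 34 had an unadjusted p under 0.05, against 17% of all genes. Of the 21 alternative limma fits, 6 called Ndufv1 lower (adjusted p from 0.0103 to 0.0477). The fit with array weights also called Ndufs1 lower (adjusted p = 0.0421). Neither gene that rose encodes a subunit of the finished complex. The first was Ndufaf1. The second was Ndufa4l2, a gene known to respond to low oxygen and to dampen respiration. It read 7.04, 7.45, 7.43 and 7.43 in control, 7.85, 7.65, 7.91 and 7.77 in R140Q, and 7.49, 7.73, 7.60 and 7.75 in R172K hearts. All 8 mutant arrays lay above all 4 controls, of which control 1 was far lower than the rest.

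Ndufa4l2 rose by 0.46 ± 0.10 in R140Q hearts (adjusted p = 0.0367), and its R172K difference was 0.31 ± 0.10 (adjusted p = 0.063). The R140Q call ended without any 1 control array or without R140Q 1, 3 or 4 (adjusted p from 0.053 to 0.119), and without control 1 the difference was 0.36. Its paralog Ndufa4, now placed in complex IV, read 11.56, 11.73, 11.63 and 11.72 in control, 11.65, 11.84, 11.52 and 11.69 in R140Q, and 11.66, 11.74, 11.77 and 11.34 in R172K hearts. The groups of Ndufa4 overlapped in every comparison, and its R172K difference was -0.03, or 0.06 without R172K 4. The count of 2 became 0 without control 1, 2 or 3, R140Q 1, 3 or 4, and 1 without control 4 or R172K 1 or 2. In R140Q hearts 7 of the 43 genes lay below all controls and 2 above, against 7.04% and 7.79% of all genes. The 7 were all subunits, and the subunit median without R140Q 3 was -0.04.

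R172K and R140Q hearts were also compared directly. Of the 43 genes 2 were lower in R172K hearts and none higher, where 1.48% of all genes passed, 0.487% higher and 0.998% lower. They were Ndufa2, with a difference of -0.68 ± 0.10 (adjusted p = 0.0207), and Ndufc1, with -0.35 ± 0.08 (adjusted p = 0.0468). In both genes the R140Q arrays overlapped the control arrays and every R172K array lay below every R140Q array. The 4 atrial markers also differed in this comparison. They summed to 601 to 9830 in R140Q and 10600 to 19700 in R172K hearts (4880 to 26800 in control), Myl4 was higher in R172K hearts by 3.52 (adjusted p = 0.0458) and the other 3 did not pass. Their part in the Nduf differences was not tested. The call on Ndufa2 ended without R140Q 1 or 4 or R172K 1 or 2 (adjusted p from 0.0544 to 0.08). That on Ndufc1 held among single omissions only without R172K 3, and otherwise reached 0.156.

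The median difference between the mutants was -0.12 over the subunits, with 29 of 34 below 0 (51.1% of all genes) and 9 at an unadjusted p under 0.05 (16.3% of all genes). Without R172K 4 it was -0.03. On all 4 arrays 6 of the 43 genes were lower in R172K than in every R140Q heart and 1, Ndufc2, was higher, against 4.64% and 3.07% of all genes. The count of 2 became 8 without R172K 3, 1 without any 1 control array, R140Q 2, R140Q 3 or R172K 4, and 0 without R140Q 1, R140Q 4, R172K 1 or R172K 2. For the other 10 genes that fell against control in R172K hearts, the difference between the mutants did not pass, and for Ndufs1 it was -0.25 ± 0.15 (adjusted p = 0.455). Those genes are therefore not shown to differ between R172K and R140Q hearts, nor to be alike.

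In R172K hearts the median was -0.25 over the 34 complex I subunits and -0.16 over 39 subunit genes of complexes II to V. This gap was not tested. Of the 39 genes 12 fell and 2 rose, against 6.78% and 6.23% of all genes. In limma 22 of the 39 had an unadjusted p under 0.05, against 26.6% of all genes. Of the 34 complex I subunits 11 fell, none rose and 21 had such a p. By complex the medians over subunits were -0.18, -0.17, -0.08 and -0.16 for complexes II, III, IV and V. With 4 complex II assembly factors (Sdhaf1 to Sdhaf4) added, the 43 genes had a median of -0.13. Set against the control mean, their median was -0.08 on R172K 1, 2 and 3 and -0.29 on R172K 4. The complex I subunits had -0.21, -0.16 and -0.09 on R172K 1, 2 and 3 and -0.53 on R172K 4. In R140Q hearts none of the 43 genes of complexes II to V passed, where 2.2% of all genes did, and their median was -0.07. In limma 8 of the 43 had an unadjusted p under 0.05, which is near the 17% of all genes.

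RefSeq promoters (assembly GRCm38.p6, 250 bases before to 50 bases after the gene start) were at hand for 38 of the 43 genes, and 9 of those fell in R172K hearts. The 250 bases upstream follow for 4 of the 5 genes that fell at an adjusted p under 0.05 in all 21 alternative fits. These 4 genes were picked by their calls in these data, and whether they are regulated together was not tested. The sequences are written 5′ to 3′ on the strand of the gene. Capitals mark matches to the motif letters of NRF1 (the capitals in the Ndufaf4 sequence), CCGGAAGT (GABPA), TCAAGGTCA (estrogen-related receptor), AAGATGGCG (YY1), CCAAT or CACGTG (E-box) on either strand.
Ndufs6, chr13:73328483-73328732, minus strand: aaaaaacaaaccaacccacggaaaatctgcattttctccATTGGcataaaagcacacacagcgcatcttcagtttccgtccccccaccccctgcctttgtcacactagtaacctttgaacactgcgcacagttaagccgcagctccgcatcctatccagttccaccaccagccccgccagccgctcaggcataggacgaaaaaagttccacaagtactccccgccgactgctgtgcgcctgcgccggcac
Ndufv3, chr17:31519865-31520114, plus strand: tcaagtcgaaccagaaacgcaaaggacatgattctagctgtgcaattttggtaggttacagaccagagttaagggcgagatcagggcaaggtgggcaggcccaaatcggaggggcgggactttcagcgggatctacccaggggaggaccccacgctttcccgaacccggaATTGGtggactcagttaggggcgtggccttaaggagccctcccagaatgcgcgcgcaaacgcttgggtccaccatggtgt
Ndufc1, chr3:51408956-51409205, minus strand: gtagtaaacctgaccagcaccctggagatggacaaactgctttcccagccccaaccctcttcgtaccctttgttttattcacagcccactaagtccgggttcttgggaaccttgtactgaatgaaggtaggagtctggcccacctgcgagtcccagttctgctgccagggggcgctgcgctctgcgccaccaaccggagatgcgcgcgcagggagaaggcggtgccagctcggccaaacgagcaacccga
Ndufaf4, chr4:24897833-24898082, plus strand: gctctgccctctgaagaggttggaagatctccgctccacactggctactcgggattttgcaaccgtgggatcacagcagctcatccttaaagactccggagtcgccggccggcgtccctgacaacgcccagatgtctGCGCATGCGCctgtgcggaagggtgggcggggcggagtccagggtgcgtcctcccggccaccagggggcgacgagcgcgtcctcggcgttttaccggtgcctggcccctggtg

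Over the full windows of 300 bases, the YY1 letters stood in 5 of the 38 Nduf promoters (13.2%), against 1.49% of 27025 promoters. NRF1 and YY1 are transcription factors known to act on genes of the respiratory chain. All 5 matches lay just after the gene start, on the strand of the gene. The letters contain ATG, the start codon. Whether these matches are the protein starts of the genes, in place of YY1 sites, was not tested. The 5 matches are shown here with their flanks.
Ndufs6, chr13:73328433-73328458, minus strand: gtcaccggcAAGATGGCGgcggtgct
Ndufc1, chr3:51408915-51408942, minus strand: ctgcggaacAAGATGGCGccgtccgtag
Ndufs4, chr13:114388045-114388068, minus strand: gcctacaggAAGATGGCGgcggtc
Ndufs7, chr10:80249464-80249491, plus strand: gccgaggccAAGATGGCGgcgctggcgg
Ndufa9, chr6:126849097-126849124, minus strand: ttgtgggagAAGATGGCGgccgccgtcc

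Capitals mark the YY1 letters. Ndufs6 and Ndufc1 fell in R172K hearts, and Ndufs4, Ndufs7 and Ndufa9 did not pass, so the letters were found in 2 of the 9 genes that fell and in 3 of the other 29. The NRF1 letters stood in 3 of the 38 promoters (7.89%), against 0.977% of all promoters. They were those of Ndufaf4, Ndufa11 and Ndufaf5, of which Ndufaf4 fell. The GABPA letters stood in 1 (4% of all promoters), the estrogen-related receptor letters in none (0.407%), CCAAT in 12 (37.9%) and CACGTG in 2 (7.24%). These are matches of letters in a window, not measured binding, and a missing match says only that the letters are absent there.

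Some Nduf genes start back to back with a neighbour on the opposite strand. Such a neighbour, with its start within 1000 bases, was measured for 13 of the 38 genes. In R172K hearts 1 of the 13 neighbours fell, which is near the 6.78% of all genes that fell. The neighbour that fell was Asb15, an ankyrin repeat gene of muscle, which starts 618 bases from Ndufa5. Asb15 fell by 2.20 (adjusted p = 0.00352), against -0.39 for Ndufa5. The neighbours of the other genes that fell were Morn5 beside Ndufa8 (-0.01) and the mitochondrial ribosomal gene Mrpl47 beside Ndufb5 (0.04). Rps28, which starts 10 bases from Ndufa7, had a difference of 0.26 (adjusted p = 0.0623), opposite in sign to the -0.26 of Ndufa7. Whether transcripts that overlap reach the same probe sets was not tested.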

How the data were processed

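The deposited table holds 1 intensity per probe set and array, which the submitters' processing notes credit to RMA. Array medians of 74.8 to 78.0 show the deposited intensity to be linear, where the planned test had assumed log2 values, so log2 was taken here without a pseudocount. RMA brings all arrays to 1 distribution and hides any shift common to most genes. No source used here gives the version of RMA.

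Of 34760 probe sets, 21640 carried 1 symbol, 1321 several and 11799 were not listed. Taking the brightest probe set per symbol gave 19937 genes. The Nduf rule took 48 probe sets for 43 genes. A further 3 probe sets with several symbols, naming Ndufs5 or Ndufb4 with a copy, were left out. Group means of 12 arrays were fitted with limma 3.58.1 in R 4.3.3 (lmFit, eBayes, two-sided, 9 residual degrees of freedom plus 3.54 from eBayes) and Benjamini-Hochberg adjustment. The number of arrays limits the precision. The fit was tested on simulated data.

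All 43 genes were named, with values by array for those that passed in any comparison, the core subunits, the member of each class with the smallest p in R172K hearts, those of highest and lowest mean intensity, Ndufa2, Ndufa4, Ndufa4l2 and Idh2. Others given by array were chosen after their values were seen. The members, classes and lists were chosen with earlier results of these data known. Alternative fits changed the groups fitted, the block, the probe set rule, dim genes, normalization, variance model, weights or threshold, or left out 1 array. A fit without control 3, R140Q 4 and R172K 3, picked for their atrial or lung marker sums, was added after seeing the data.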

Additional observations from a re-analysis of the deposited data

Results flagged for a closer look

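Ndufa2 and Ndufc1 are listed here because the test of R172K against R140Q hearts itself passed. The log2 differences were -0.68 for Ndufa2 and -0.35 for Ndufc1.

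In 9 of the 129 sets of 4 arrays (43 genes in 3 groups) the highest or lowest array lay apart from the other 3 beyond Dixon's critical value, which chance gives in about 1 of 20 sets. The array R172K 4 was the low one for 4 genes, at 12.03 for Ndufb11, 11.36 for Ndufs3, 8.76 for Ndufs5 and 12.35 for Ndufv2. The array R172K 3 was the high one for 2 genes, at 10.15 for Ndufa2 and 11.62 for Ndufa3. The others were control 1 at 7.04 for Ndufa4l2, control 3 at 9.36 for Ndufb2 and R140Q 2 at 7.56 for Ndufaf7.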

How the results depend on the processing

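No named gene reversed its direction with a call. In all alternatives the 6 medians of subunits and assembly factors moved by less than the SD between arrays within groups. The low array R172K 4 widens that SD, so this limit is loose and does not show the medians to be stable. With 1 array left out, the subunit median between the mutants ran from -0.182 to -0.031. The R172K median of the assembly factors ran from -0.145 to -0.044. Counts of called genes moved more. For the 43 Nduf genes in R140Q hearts the count of 2 became 5 with array weights (3 higher, 2 lower). It became 0 with the replicate block, without control 3, R140Q 4 and R172K 3 together, or at an adjusted p under 0.01. In R172K hearts the 12 became 6 with the compared groups alone, 7 with arrays centred on their medians and 4 at 0.01, all lower, but 18 among brighter genes (3 higher, 15 lower), 18 with weights (2 higher, 16 lower) and 14 with quantile normalization again (1 higher, 13 lower). Between the mutants the 2 became 0 with the compared groups alone, with the replicate block or at 0.01, 1 with trended robust variances, 4 among brighter genes, 6 with weights and 6 without the 3 arrays together. Over all genes the 439 of R140Q became 1342 with the compared groups alone, 196 with the block, 1651 with weights and 73 at 0.01, and centring gave 268 up and 178 down, where the main values were 216 and 223. The 2593 of R172K became 4491 with weights and 773 at 0.01. The 296 between the mutants became 9 with the compared groups alone, 11 with the block, 449 among brighter genes, 179 with trended robust variances, 1774 with weights, 806 without the 3 arrays and 1 at 0.01, and centring gave 69 up and 252 down against 97 and 199. The causes were not tested. With 1 array left out, the Nduf counts ran from 0 to 3 for R140Q, 5 to 17 for R172K and 0 to 8 between the mutants, and the counts over all genes from 100 to 1015, 1327 to 4157 and 1 to 1577. Arrays of the same replicate number had deviations that correlated between -0.336 and 0.152, so the numbers were not taken to pair the samples, and the replicate block left 8 of the 12 R172K calls.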
